A study of Homo sapiens with 12 samples.

Results

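The genes described here are the well-counted ZNF genes of HepG2 cells: those whose symbol is ZNF, a number and at most 1 letter, and whose mean normalized count in the authors' deposited table of the toosendanin against control comparison was 300 or more. The members were thus chosen by name and by this measured mean. Of 28265 genes listed, 534 have such a symbol and 194 of these reached the limit. The limit used the mean over both conditions, so level is part of the choice and is given as a description only. The members just inside it were ZNF607 with 300.9, ZNF627 with 305.8, ZNF587B with 306.9, ZNF197 with 307.5 and ZNF720 with 310.5 normalized counts in the authors' deposited table. Just outside it were ZNF668 with 299.0, ZNF101 with 298.2, ZNF334 with 296.9, ZNF814 with 292.2 and ZNF765 with 291.0 in the authors' deposited table. The other 340 ZNF genes were below the limit, 39 of them listed at 0.

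HepG2 is an established human hepatocellular carcinoma line, and toosendanin is a triterpenoid of Melia toosendan that is known for liver toxicity. The groups were 3 toosendanin IP, 3 toosendanin input, 3 control IP and 3 control input libraries, all of unmodified HepG2 cells as far as the labels say, where IP is RNA pulled down with an antibody against N6-methyladenosine (m6A) and input is the RNA before the pull-down. The labels give no dose, time or vehicle. They do not tie the libraries of a group to separate cultures, so an expression p-value here reflects spread among libraries that could be technical repeats. The m6A p-values hold only the counting error of summed counts. The expression data were deposited as a finished comparison and the m6A counts as sums per condition, so values per library were not analysed here.

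ZNF genes mostly encode proteins with tandem Cys2-His2 zinc fingers that bind DNA. The largest class adds a KRAB domain, which recruits the corepressor TRIM28 and, through it, the histone methyltransferase SETDB1, and is best known for silencing retroelements; many of its genes stand in clusters on chromosome 19. Others bind RNA, take part in ribosome assembly or act in mitosis, and m6A, an internal mark of mRNA set by the METTL3 and METTL14 methyltransferase, affects splicing, decay and translation. The name is given for the fingers, and a few carriers of it differ: ZNF185 encodes a LIM-domain protein, and 2 members, ZNF252P and ZNF271P, carry pseudogene symbols.

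The summed counts over all m6A regions were 29094328 for toosendanin IP, 24253006 for toosendanin input, 42316089 for control IP and 34131862 for control input. Regions of the ZNF members held 238632, 150067, 346709 and 205062 of these counts, in the same order of libraries. The liver origin was checked against markers: all 9 hepatocyte markers had a mean between 5546 and 411979 normalized counts in the authors' deposited table. Of markers of other cell types in the authors' deposited table, PTPRC, CD3E, COL1A1, COL1A2, DCN, KDR and KRT7 were listed at 0, and 0 of 4 endothelial, 1 of 6 fibroblast, 1 of 5 blood and immune and 4 of 5 cholangiocyte markers reached 300. In such bulk RNA, fewer cells with a transcript and less of it per cell cannot be told apart.

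Most of the ZNF members were not called after toosendanin, and a short list moved strongly. In the authors' deposited table, 24 of 194 members were higher and 22 lower at an adjusted p under 0.05 (DESeq2 Wald test, Benjamini-Hochberg adjustment over all genes), and 148 were not called. That is 23.7% of the members, against 43.9% of the 9151 genes with a mean of 300 or more (21.6% higher, 22.3% lower) and 31.4% of all 16552 genes with an adjusted p. The share was below the background at each level of counts in the authors' deposited table: 20 of 93 members against 32% of all genes at means of 300 to 600, 14 of 62 against 38.7% at 600 to 1200, and 12 of 39 against 51.3% at 1200 or more. Beside this, the median standard error of the log2 fold change at means of 300 to 600 was 0.167 for members and 0.163 for all genes. It was 0.130 and 0.122 at 600 to 1200, and 0.093 and 0.085 at 1200 or more, in the authors' deposited table. Over all levels it was 0.15 for members and 0.11 for all genes with a mean of 300 or more. The part of these errors in the difference was not tested. The median log2 fold change in that authors' deposited table was 0.05 for members and 0.00 for those genes, and 168 members (86.6%, against 80.8%) moved by less than 0.5. At a change of at least 2-fold, 6 members were higher and 1 lower in the authors' deposited table; all genes with a mean of 300 or more had 4.33%, of which 2.23% higher and 2.1% lower. No excess is read from this count, because the limit took the mean over both conditions and a gene could pass it on 1 condition. With equal numbers of libraries, 17 members would lie below 300 in 1 condition, 5 of them called higher and 1 lower in the authors' deposited table. The 5 are the 2-fold rises of ZNF114, ZNF165, ZNF426, ZNF554 and ZNF555, whose implied control level was 159 to 245 normalized counts, so they passed the limit on their toosendanin level. Without members of this kind, 1 rise (ZNF556) and 1 fall (ZNF614) of at least 2-fold were left in the authors' deposited table. Among the other 177, that authors' deposited table called 19 higher and 21 lower (22.6%). Among the 276 ZNF genes below the limit with an adjusted p, 15 were higher and 17 lower in the authors' deposited table (11.6%), against 16% of 7401 genes with a mean under 300 (8.4% higher, 7.63% lower), with a median standard error of 0.28.

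**Figure D1:**
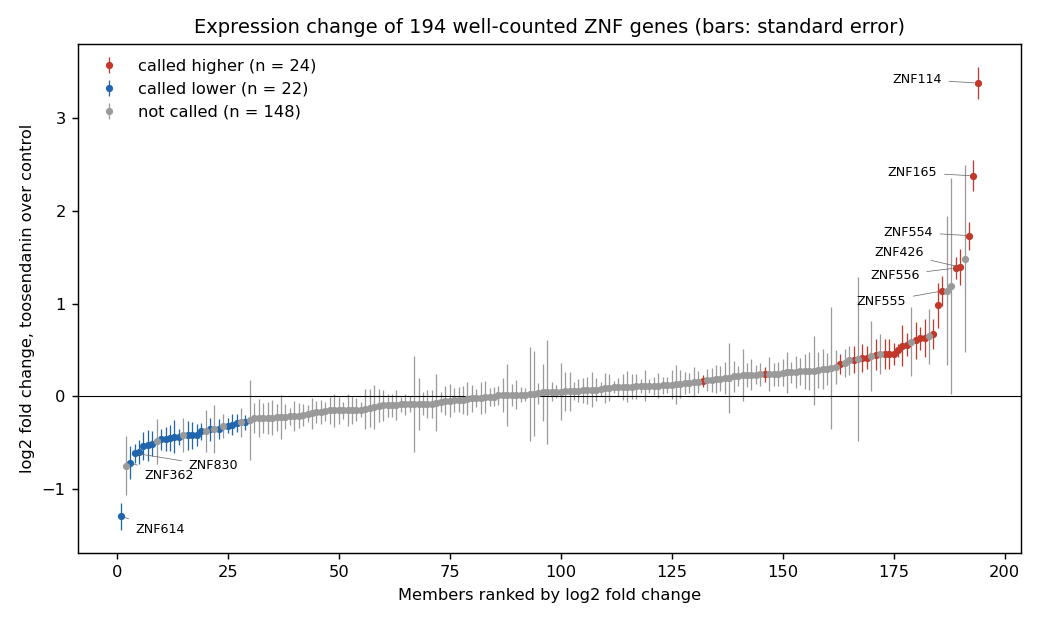
The 194 ZNF members are ranked along the x axis by log2 fold change, toosendanin over control (y axis; points, with bars for the standard error), from the authors' deposited table. Red points are the 24 called higher, blue the 22 called lower and grey the 148 not called; ZNF114 at 3.38 and ZNF614 at -1.29 end the range.

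The steepest rise was that of ZNF114. Its regions held 52.0 CPM of input (counts scaled to the total input of the condition) in toosendanin cells and 4.83 CPM in control cells. The authors' deposited table gave a log2 fold change of 3.38 ± 0.17 (standard error, adjusted p = 6.87e-84), or 10.4-fold. ZNF165, a SCAN-domain zinc finger known as a cancer-testis antigen, had 36.9 input CPM in toosendanin cells and 7.0 CPM in control cells. Its log2 fold change was 2.38 ± 0.17 in the authors' deposited table (adjusted p = 2.07e-43). With these mean counts and fold changes in the authors' deposited table, ZNF114 would have 1653 normalized counts in toosendanin and 159 in control cells, and ZNF165 927 in toosendanin and 178 in control cells, so each passed the limit of 300 on its toosendanin level.

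The next group of rises came from neighbours on chromosome 19. ZNF554, a KRAB zinc finger, had 22.1 input CPM in toosendanin cells and 6.39 in control cells, and 1.73 ± 0.15 as log2 fold change in the authors' deposited table (adjusted p = 1.91e-28). ZNF556 had 80.8 input CPM in toosendanin cells and 29.9 in control cells, with 1.38 ± 0.12 in the authors' deposited table (adjusted p = 3.34e-29). ZNF555 had 15.3 input CPM in toosendanin cells and 6.97 in control cells, with 1.14 ± 0.16 in the authors' deposited table (adjusted p = 5.13e-11). ZNF57 had 23.7 input CPM in toosendanin cells and 15.3 in control cells, with 0.63 ± 0.13 in the authors' deposited table (adjusted p = 9.52e-06). In each of these 4 the summed inputs were higher in toosendanin cells, by the same factor within the standard error. The deposited comparison may rest on these same input libraries, so the match is no independent support.

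ZNF554, ZNF555, ZNF556 and ZNF57 follow each other in RefSeq's order of the genes listed here, and the rises reached beyond them on 1 side. This stretch was picked after its values were seen. ZNF77, the next ZNF gene and below the limit with a mean of 240.4 normalized counts, had a log2 fold change of 0.23 ± 0.18 in the authors' deposited table (adjusted p = 0.382). On the other side, the authors' deposited table gave 0.75 ± 0.07 for THOP1, an oligopeptidase (adjusted p = 1.16e-22), and 0.57 ± 0.06 for SGTA, a cochaperone (adjusted p = 3.14e-19). SLC39A3, a zinc importer, was not called at 0.20 ± 0.11 (adjusted p = 0.176), and DIRAS1, a small GTPase with a mean of 248.7, was higher at 1.99 ± 0.21 (adjusted p = 1.27e-19) in the authors' deposited table. Past ZNF77, the authors' deposited table listed TLE2 at 0 and TLE6 at a mean of 1.79 normalized counts. It did not call TLE5, a Groucho-family member, at 0.30 ± 0.19 or GNA11, a G protein subunit, at 0.01 ± 0.06 (authors' deposited table, adjusted p = 0.226 and 0.920).

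**Figure D2:**
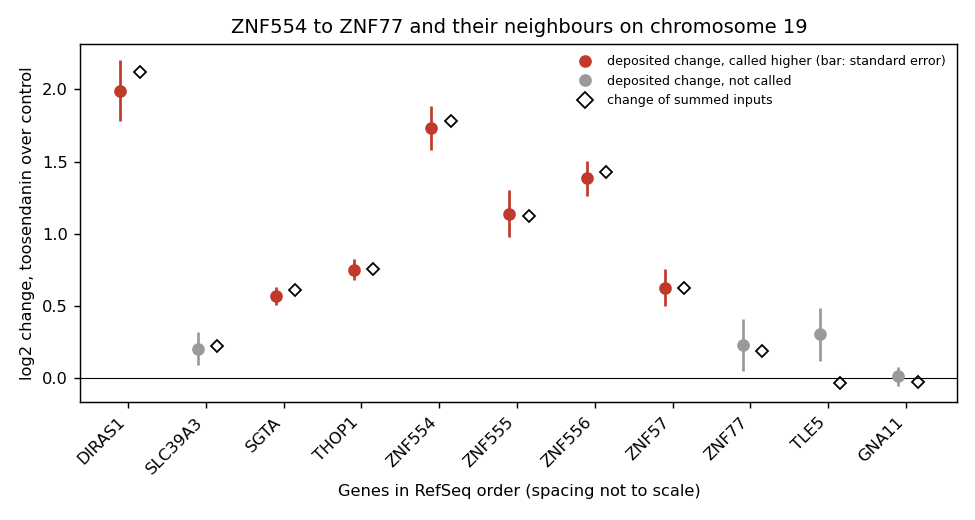
Log2 fold change in expression, toosendanin over control (y axis; bars, standard error; the authors' deposited table), for the genes around ZNF554 to ZNF77 in their RefSeq order along chromosome 19 (x axis, order only, not to scale). The 4 ZNF members lie between 0.63 and 1.73. ZNF77 next to them lies at 0.23, then TLE5 at 0.30 and GNA11 at 0.01. On the other side lie THOP1 at 0.75, SGTA at 0.57, SLC39A3 at 0.20 and DIRAS1 at 1.99. Open diamonds mark the centred log2 change of summed inputs.

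The promoters of these 5 neighbouring ZNF genes are shown because the genes stand side by side and 4 of them rose together. Each entry is RefSeq's, build GRCh38.p14, from 250 bases before to 50 bases after the gene's start, printed in the direction of the gene, with each CCAAT, or its reverse complement ATTGG, in capitals.
ZNF554, chr19:2819618-2819917, plus strand: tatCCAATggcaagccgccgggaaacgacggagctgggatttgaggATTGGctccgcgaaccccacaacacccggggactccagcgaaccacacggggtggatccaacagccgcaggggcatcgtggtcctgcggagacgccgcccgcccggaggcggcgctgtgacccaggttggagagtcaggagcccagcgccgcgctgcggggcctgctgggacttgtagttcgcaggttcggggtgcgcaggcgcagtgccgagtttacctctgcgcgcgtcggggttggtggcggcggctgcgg
ZNF555, chr19:2841225-2841524, plus strand: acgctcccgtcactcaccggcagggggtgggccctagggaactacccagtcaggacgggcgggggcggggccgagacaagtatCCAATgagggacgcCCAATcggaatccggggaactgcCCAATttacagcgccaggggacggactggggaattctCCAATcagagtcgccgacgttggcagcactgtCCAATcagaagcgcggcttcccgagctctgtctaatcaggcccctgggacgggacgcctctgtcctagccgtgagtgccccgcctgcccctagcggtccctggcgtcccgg
ZNF556, chr19:2867085-2867384, plus strand: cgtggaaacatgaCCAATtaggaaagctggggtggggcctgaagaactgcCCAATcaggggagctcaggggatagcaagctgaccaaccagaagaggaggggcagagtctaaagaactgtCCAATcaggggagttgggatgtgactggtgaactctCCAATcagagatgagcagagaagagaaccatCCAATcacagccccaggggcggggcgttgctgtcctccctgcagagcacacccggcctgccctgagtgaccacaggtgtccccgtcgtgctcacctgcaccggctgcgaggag
ZNF57, chr19:2900678-2900977, plus strand: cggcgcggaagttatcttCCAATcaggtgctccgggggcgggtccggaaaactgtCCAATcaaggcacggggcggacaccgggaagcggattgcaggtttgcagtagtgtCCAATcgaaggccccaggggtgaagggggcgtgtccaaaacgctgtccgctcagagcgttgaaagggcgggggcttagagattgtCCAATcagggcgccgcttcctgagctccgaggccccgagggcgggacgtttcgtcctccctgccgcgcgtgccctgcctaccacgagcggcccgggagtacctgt
ZNF77, chr19:2944922-2945221, minus strand: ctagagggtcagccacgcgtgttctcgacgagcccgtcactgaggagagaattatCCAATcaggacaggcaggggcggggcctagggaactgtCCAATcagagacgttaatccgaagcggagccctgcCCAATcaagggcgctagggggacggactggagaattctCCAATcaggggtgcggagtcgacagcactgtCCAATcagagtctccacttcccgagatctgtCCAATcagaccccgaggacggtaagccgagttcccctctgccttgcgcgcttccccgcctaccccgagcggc

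CCAAT on either strand occurred 2 times in the promoter window of ZNF554, 5 times in that of ZNF555, 5 times in that of ZNF556, 4 times in that of ZNF57 and 6 times in that of ZNF77. ZNF77, whose window held the most of the 5, was not called. Of the 194 members, 167 had a promoter entry, and 65 of these (38.9%) held at least 1 CCAAT, against 36.9% of 7414 promoters of genes with a mean of 300 or more and 35.7% of all 27305. At least 3 copies occurred in 8 members (4.79%), against 5.13% and 3.42% in those backgrounds. These 8 were ZNF263, ZNF317, ZNF444, ZNF555, ZNF556, ZNF57, ZNF689 and ZNF775; the authors' deposited table called 4 of them higher and 1 lower in expression, against 21.6% higher and 22.3% lower of all genes with a mean of 300 or more. Of the 4, ZNF555, ZNF556 and ZNF57 are the neighbours picked after their values were seen, so nothing is read from this count. The GC box letters GGGCGG, searched on both strands, occurred in 63.5% of member promoters, against 72.1% of those of genes with a mean of 300 or more and 44.6% of all. Split by call in the authors' deposited table, 16 of 17 promoters of members called higher held GGGCGG, 10 of 21 of those called lower and 62% of the rest. For CCAAT the same split gave 8 of 17, 7 of 21 and 38.8%. The 17 include ZNF554, ZNF555, ZNF556 and ZNF57, the neighbours picked after their values were seen, so nothing is read from these splits. A match is a description of these letters, and a GGGCGG can overlap an ATTGG by its Gs. CACGTG, searched likewise on both strands, occurred in 7.19% of member promoters against 10.9%, and TATAAA in 3.59% against 4.99%, of promoters of genes with a mean of 300 or more.

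Few other neighbouring members were both called. Of 66 pairs of members that are neighbours in RefSeq's order among genes with a mean of 300 or more, 4 were both higher, 0 both lower and 1 opposite in the authors' deposited table. Both called in the same direction made 6.06% of member pairs, against 10.9% of 8757 neighbouring pairs of any such genes, where the members were also called less often singly (23.7% against 43.9%). The log2 fold changes of neighbours had a Pearson r of 0.257 over the member pairs and 0.037 over all pairs, a description in which pairs share genes. The member pairs include those among ZNF554, ZNF555, ZNF556 and ZNF57, the stretch picked after its values were seen. Its part in the r of 0.257 was not tested, so no general likeness of neighbouring ZNF genes is read. The pair outside the ZNF554 group was ZNF766 with ZNF480, at 0.46 ± 0.16 and 0.35 ± 0.11 in the authors' deposited table (adjusted p = 0.0164 and 0.00782). By chromosome, 12 of the 64 members on chromosome 19 were higher and 5 lower in the authors' deposited table, with a median log2 fold change of 0.12. On the other chromosomes the authors' deposited table called 12 of 129 members higher and 17 lower, with a median of 0.02, and on chromosome 19 outside the members 114 of 476 genes with a mean of 300 or more higher and 108 lower. The 12 higher members on chromosome 19 include ZNF114, ZNF426, ZNF554 and ZNF555, which passed the limit on their toosendanin level. They also include ZNF556 and ZNF57, which with ZNF554 and ZNF555 form the stretch picked after its values were seen. Nothing is read from the count on chromosome 19. Beside ZNF165 on chromosome 6, the SCAN pseudogene ZSCAN12P1 was higher, at 2.08 ± 0.27 in the authors' deposited table (adjusted p = 1.34e-13). ZSCAN16 and ZKSCAN8 nearby were not called in the authors' deposited table, at -0.03 ± 0.18 and -0.16 ± 0.08; ZSCAN12P1 and ZSCAN12 may share reads.

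The other large rises were smaller and of mixed kind. ZNF292, a large transcription regulator mutated in neurodevelopmental disorders, had 53.7 input CPM in toosendanin cells and 34.5 in control cells, with 0.98 ± 0.24 in the authors' deposited table (adjusted p = 0.000318). ZNF358 had 13.9 input CPM in toosendanin cells and 8.50 in control cells, with 0.68 ± 0.16 in the authors' deposited table (adjusted p = 0.000175). For ZNF426 the sources of the series differed: the authors' deposited table gave 1.39 ± 0.19 (adjusted p = 1.57e-11), while its regions held 12.5 input CPM in toosendanin cells and 13.8 in control cells, a centred log2 change of -0.15. ZNF704 was called at 0.63 ± 0.20 in the authors' deposited table (adjusted p = 0.00892), and its inputs were level at 29.4 CPM in toosendanin and 29.1 in control cells. The cause of both gaps was not tested, and regions cover only parts of a transcript. The other 14 called rises lay between 0.16 and 0.61 in the authors' deposited table; they include ZNF841 at 0.61 ± 0.20, ZNF264 at 0.56 ± 0.13, ZNF189 at 0.46 ± 0.12 and ZNF770 at 0.24 ± 0.08.

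ZNF614 had the strongest fall. Its regions held 13.1 input CPM in toosendanin cells and 29.7 in control cells, and the authors' deposited table gave a log2 fold change of -1.29 ± 0.14 (adjusted p = 7.02e-18). It was the one member lower by at least 2-fold. Of its neighbours on chromosome 19, ZNF649 at -0.74 ± 0.19 and ZNF615 at -0.65 ± 0.26 were lower too in the authors' deposited table (adjusted p = 0.000909 and 0.0401), both below the limit of 300. ZNF613 and ZNF350, which lie between ZNF649 and ZNF615, were not called in the authors' deposited table, at -0.24 ± 0.23 and -0.08 ± 0.28 (adjusted p = 0.493 and 0.886). ZNF432 on its other side was not called at -0.08 ± 0.15, and ZNF841 beyond it was higher, in the authors' deposited table (adjusted p = 0.768 and 0.00907).

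Next came ZNF362, a relative of ZNF384, with 15.2 input CPM in toosendanin cells and 28.8 in control cells and -0.72 ± 0.18 in the authors' deposited table (adjusted p = 0.000303). ZNF202, a SCAN and KRAB repressor of lipid metabolism genes, had 14.8 input CPM in toosendanin cells and 21.2 in control cells, with -0.60 ± 0.13 in the authors' deposited table (adjusted p = 1.99e-05). ZNF711, an X-linked gene of intellectual disability, fell by 0.53 ± 0.17 in the authors' deposited table (adjusted p = 0.00665). ZNF692, a repressor of a gluconeogenesis gene, fell by 0.46 ± 0.11 in the authors' deposited table (adjusted p = 0.000356). ZNF248 at -0.54 ± 0.15, ZNF839 at -0.51 ± 0.14, ZNF444 at -0.46 ± 0.13 and ZNF875 at -0.45 ± 0.14 complete the 10 largest falls with ZNF830, and the other 12 called falls lay between -0.44 and -0.28 in the authors' deposited table. All 22 lower members also had lower summed inputs in toosendanin cells, from libraries that the deposited comparison may share.

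By role, the members that handle ribosomes and RNA were mostly not called. The role lists used from here on were written by hand with earlier results of these data known. Of 8 members on a list of such genes, the authors' deposited table called 0 higher and 1 lower, against 21.6% higher and 22.3% lower of all genes with a mean of 300 or more, with a median log2 fold change of -0.08 (0 higher and 2 lower at an unadjusted p under 0.05). The one that fell was ZNF638, an RNA-binding nuclear protein of splicing and silencing and the member with the highest mean (6228 normalized counts). It had 204.5 input CPM in toosendanin cells and 257.9 in control cells, with -0.32 ± 0.08 in the authors' deposited table (adjusted p = 0.000817). ZNF622, a ribosome assembly factor, was not called at 0.10 ± 0.07, ZNF598, a ubiquitin ligase of collided ribosomes, at -0.02 ± 0.10 and ZNF593, a factor of the large ribosomal subunit, at 0.01 ± 0.11 in the authors' deposited table (adjusted p = 0.259, 0.925 and 0.960). ZNF330, a nucleolar protein, had -0.22 ± 0.09 in the authors' deposited table (adjusted p = 0.0530).

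Of 4 members with a known part in mitosis or genome maintenance, 0 were higher and 2 lower in the authors' deposited table, with or without adjustment of p, against 21.6% higher and 22.3% lower of all genes with a mean of 300 or more with it. ZNF830, known for splicing and the cell cycle, had 25.3 input CPM in toosendanin cells and 37.7 in control cells, with -0.61 ± 0.10 in the authors' deposited table (adjusted p = 4.79e-08). ZNF451, a SUMO ligase, fell by 0.28 ± 0.08 in the authors' deposited table (adjusted p = 0.00297). ZNF207, the kinetochore protein BuGZ, had 0.06 ± 0.10 and ZNF827, a telomere factor, 0.19 ± 0.13 in the authors' deposited table, neither called (adjusted p = 0.751 and 0.304). Below the limit, ZNF367, a cell cycle gene with a mean of 73.5 normalized counts, was lower at -1.52 ± 0.42 in the authors' deposited table (adjusted p = 0.00165).

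General transcription regulators without a KRAB domain moved in both directions: of 27 members on that list, the authors' deposited table called 4 higher and 4 lower, against 21.6% higher and 22.3% lower of all genes with a mean of 300 or more, with a median log2 fold change of 0.05. ZNF217, an oncogene amplified in breast cancer, had 92.4 input CPM in toosendanin cells and 64.0 in control cells, with 0.50 ± 0.07 in the authors' deposited table (adjusted p = 3.31e-11). ZNF655, a Vav-interacting protein, at 0.46 ± 0.16 and ZNF512B at 0.16 ± 0.07 were higher in the authors' deposited table (adjusted p = 0.0203 and 0.0482), as was ZNF704. In the summed inputs, ZNF655 had a centred log2 change of 0.20 and ZNF704 one of 0.01, both below their deposited changes. Besides ZNF692, the falls were ZNF131 at -0.42 ± 0.12, ZNF503, a developmental repressor, at -0.42 ± 0.14 and ZNF407 at -0.42 ± 0.16 in the authors' deposited table (adjusted p = 0.00322, 0.0150 and 0.0281). The uncalled members with the smallest errors were ZNF277 at 0.02 ± 0.07, ZNF592 at 0.05 ± 0.07 and ZNF609 at 0.08 ± 0.08 in the authors' deposited table. Of the 5 members with the highest means, ZNF664 at 0.43 ± 0.38, ZNF318 at 0.11 ± 0.08 and ZNF106 at 0.02 ± 0.16 were not called in the authors' deposited table.

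Of 6 KRAB zinc finger members on a list known for binding retroelements or imprinted loci, the authors' deposited table called 0 higher and 1 lower, against 21.6% higher and 22.3% lower of all genes with a mean of 300 or more, with a median log2 fold change of 0.23 (2 higher and 1 lower at an unadjusted p under 0.05). The one called, ZNF202, is better known for lipid genes. Not called were ZNF274, which binds zinc finger gene clusters, at 0.39 ± 0.16, ZNF91, a repressor of SVA elements, at 0.22 ± 0.11 and ZNF263 at -0.09 ± 0.08 in the authors' deposited table (adjusted p = 0.0508, 0.117 and 0.485). ZNF445, a regulator of imprinting, had 1.14 ± 0.80 in the authors' deposited table (adjusted p = 0.306). Of the listed genes of this kind with an adjusted p, members or not, the authors' deposited table called 4 higher and 2 lower of 14, against 15.7% in each direction of all genes with an adjusted p. Among the higher were ZNF460 at 0.63 ± 0.19 and ZNF141 at 5.14 ± 1.68, on a mean of only 5.61 normalized counts. The lower were ZNF202 and ZNF649, the latter at -0.74 ± 0.19 in the authors' deposited table.

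The listed genes of the KRAB corepressor machinery, with DNA methylation factors among them, were called lower or not called. Of 25 listed genes, the authors' deposited table called 0 higher and 12 lower (48%), with a median log2 fold change of -0.24. At an unadjusted p under 0.05, 0 were higher and 14 lower. All genes with a mean of 300 or more had 21.6% higher and 22.3% lower. The median mean of the list was 2324 normalized counts, and genes with a mean of 1200 or more had 24.6% higher and 26.7% lower. The list was written by hand with earlier results of these data known, so nothing is read from its count. TRIM28, the corepressor that binds KRAB, fell by 0.24 ± 0.07 and SETDB1 by 0.36 ± 0.08 in the authors' deposited table (adjusted p = 0.00475 and 2.22e-05). UHRF1, which guides maintenance of DNA methylation, was lowest at -1.61 ± 0.11, with DNMT1 at -0.50 ± 0.07 and HDAC2 at -0.56 ± 0.09 in the authors' deposited table (adjusted p = 1.02e-42, 2.71e-12 and 1.68e-08). SMARCAD1 at -0.47 ± 0.10, DNMT3A at -0.43 ± 0.12, EHMT2 at -0.37 ± 0.08, CHD4 at -0.28 ± 0.07, DAXX at -0.28 ± 0.09, ATRX at -0.25 ± 0.07 and CBX1 at -0.23 ± 0.09 were the others called in the authors' deposited table. In the summed inputs TRIM28 had a centred log2 change of -0.11 and CBX1 one of -0.14, smaller than deposited, SETDB1 one of -0.31 and UHRF1 one of -1.67. Zinc finger genes of other name families with a mean of 300 or more (ZBTB, ZSCAN, ZKSCAN and ZFP) numbered 47. The authors' deposited table called 10 of the 47 higher (21.3%) and 4 lower (8.51%), against 21.6% and 22.3% of all genes at that mean. The ZBTB genes among the 47, which carry a BTB domain, were higher in 7 (28%) and lower in 1 (4%) of 25. ZBTB38 had 0.75 ± 0.08 and ZBTB46 0.98 ± 0.13 in the authors' deposited table.

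The deposited changes were set beside the inputs of the m6A data, summed over each member's regions. Across 190 members with regions under their own name the 2 had a Pearson r of 0.873, a description across genes that may share the same libraries. Of the 46 called members, 45 moved in the same direction in the inputs, ZNF426 being the exception, and 36 differed by no more than 1 standard error of the authors' deposited table. Large errors marked another group: 8 members (4.12%, against 1.56% of genes with a mean of 300 or more) had a standard error over 0.5 in the authors' deposited table. ZNF224, a KRAB zinc finger, had 1.19 ± 1.17 in the authors' deposited table, and its inputs were 21.3 CPM in toosendanin cells and 22.1 in control cells. ZNF7 had 1.49 ± 1.01 in the authors' deposited table and an input change of 0.25; the others were ZNF3, ZNF33A, ZNF33B, ZNF445, ZNF514 and ZNF605, none of the 8 called. Some ZNF genes are close copies of each other, ZNF33A and ZNF33B among them, and the sources used here do not say how the authors assigned reads that match both.

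**Figure D3:**
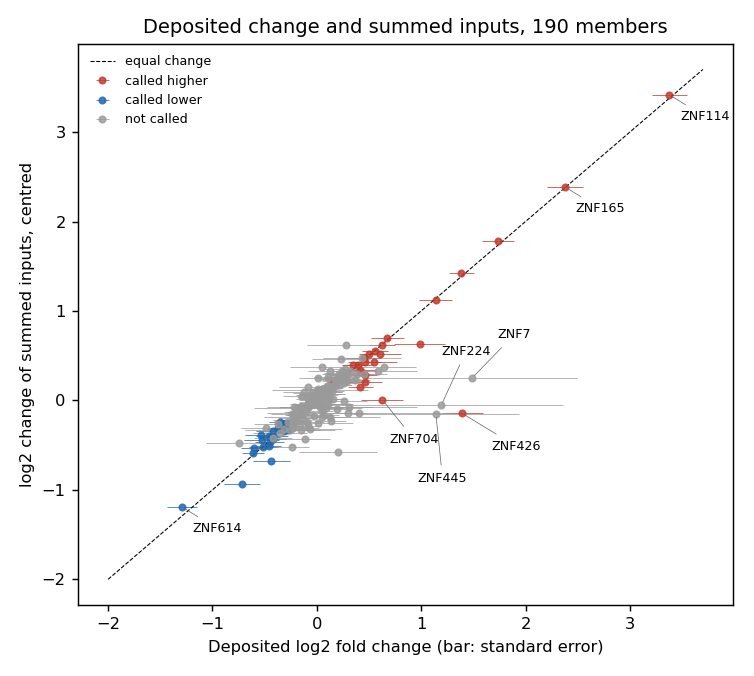
Each point is 1 of 190 ZNF members, with the log2 fold change of the authors' deposited table on the x axis (bars, standard error) and the centred log2 change of its summed inputs, toosendanin over control, on the y axis; the dashed line marks equal changes. ZNF114 and ZNF165 lie on the line, and ZNF426 and ZNF704 are called members off it at -0.15 and 0.01.

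Regions of ZNF transcripts had higher IP over input ratios than regions at large in both conditions. A region's enrichment is the log2 ratio of IP over input, each scaled to its total and with 0.5 added to each count. Over the 567 member regions with at least 50 input counts in each condition, the median enrichment was 0.30 in toosendanin and 0.32 in control cells, against -0.20 in toosendanin and -0.26 in control cells over all 29153 such regions. Summed over a member's regions, 153 of 190 members (80.5%) had an enrichment above 0 in toosendanin cells and 151 (79.5%) in control cells. For genes with a mean of 300 or more the shares were 48.6% in toosendanin and 46.0% in control cells, of 8758. These shares are descriptions with no test, and the scaling to totals sets where 0 lies for all regions alike. Member regions on chromosome 19 had a median of 0.55 in toosendanin and 0.55 in control cells, and those on other chromosomes 0.21 in toosendanin and 0.23 in control cells. ZNF genes below the limit had 0.52 in toosendanin and 0.60 in control cells, and the ZBTB, ZSCAN, ZKSCAN and ZFP genes 0.44 in toosendanin and 0.47 in control cells.

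**Figure D4:**
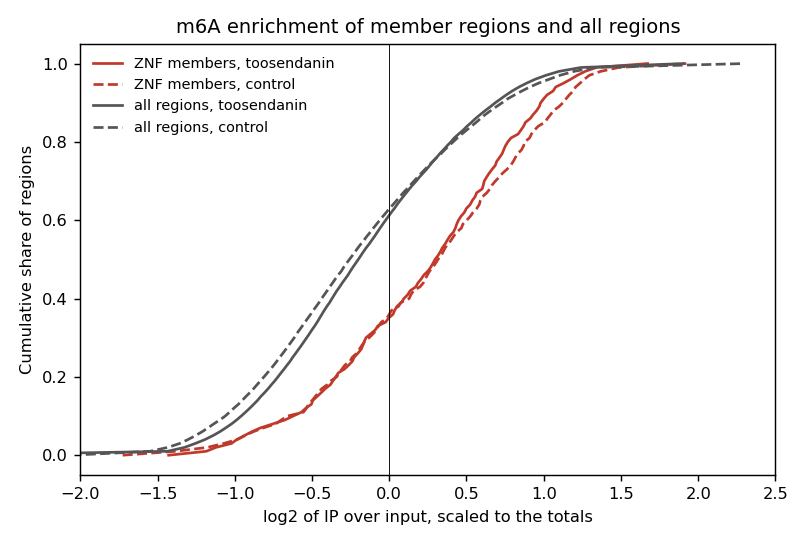
Cumulative share of regions (y axis) by log2 enrichment of IP over input (x axis), for 567 regions of ZNF members and all 29153 regions with at least 50 input counts in each condition, in toosendanin and control cells. The member curves lie to the right, with medians of 0.30 in toosendanin and 0.32 in control cells against -0.20 and -0.26 over all regions.

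Enrichment differed widely between members, and a region's values in the 2 conditions followed each other. Over the 567 regions the 2 conditions had a Pearson r of 0.918, across regions. The most enriched in control were region 6 of ZNF480 with 1.41 in toosendanin and 1.92 in control cells, region 10 of ZNF292 with 1.56 in toosendanin and 1.65 in control cells, and region 7 of ZNF12 with 1.01 in toosendanin and 1.61 in control cells, counting each gene's regions in the order of the file. Region 3 of ZNF292 had 1.26 in toosendanin and 1.59 in control cells, and region 2 of ZNF254 1.38 in toosendanin and 1.53 in control cells. The least enriched in control were region 5 of ZNF592 with -1.17 in toosendanin and -1.73 in control cells and region 1 of ZNF512B with -1.16 in toosendanin and -1.60 in control cells. Region 1 of ZNF593, region 2 of ZNF512B and region 3 of ZNF598 followed, at -1.55, -1.48 and -1.45 in control cells. In toosendanin cells the lowest member region had -1.43. Both ends were ranked by control values, so differences between conditions in the listed regions are not read as changes. As whole genes, ZNF830 was highest in toosendanin cells, with 1.18 in toosendanin and 1.23 in control cells, and ZNF292 in control cells, with 1.08 in toosendanin and 1.25 in control cells. ZNF428 was lowest in both, with -0.98 in toosendanin and -1.24 in control cells. The members with the most regions were ZNF704 with 18, ZNF83 with 14, and ZNF142, ZNF292 and ZNF780A with 13 each. At the upper end, 51 member regions (8.99%) exceeded an enrichment of 1 in toosendanin cells and 88 (15.5%) in control cells, against 3.18% in toosendanin and 4.52% in control cells over all regions.

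Every m6A call in the ZNF members was a fall, and a smaller share of their regions was called than of all regions. Of 1034 regions in 190 members, 480 regions in 179 members carried an FDR, and the authors' deposited table called 23 of these lower and 0 higher at an FDR under 0.05. The 23 (4.79%) lay in 19 members and compare with 8.95% of all 24688 regions, 6.24% lower and 2.71% higher. Neither trait was particular to the members. Of 117 tested regions of the ZBTB, ZSCAN, ZKSCAN and ZFP genes, 4 (3.42%) were lower and 0 higher in the authors' deposited table. Of 97 tested regions of ZNF genes below the limit, 2 (2.06%) were lower and 0 higher. At an unadjusted p under 0.05 in the authors' deposited table, 85 member regions (17.7%) were lower and 10 (2.08%) higher, against 14.6% lower and 7.21% higher over all regions. The deposited p-values hold counting error only: in 99.7% of 1010 member regions the error they imply differed by less than 1% from that of Poisson counts. A call thus compares the summed libraries and not the spread between them. With the statistic widened by 1.55, its spread over all regions, 0 of the 23 calls were left in the members and 388 over all regions. The split depended on the zero point: centred on the median of all regions (-0.06), 6 member regions were lower and 1 higher, and over all regions 767 were lower and 1261 higher in place of 1540 and 669. Among regions enriched in control, 19 of 335 member regions were lower and 0 higher in the authors' deposited table, against 10% lower and 0.391% higher of 10240. That choice uses the control ratio, which the fold change subtracts, so a tilt to lower is built into it. Of regions not enriched in control, 4 of 145 member regions were lower and 0 higher, against 3.54% lower and 4.35% higher of 14448. Median total counts per tested region were 1030 for members and 1347 for all, and median standard errors 0.19 and 0.17; the part of depth in the lower share was not tested.

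None of the calls described next held with the widened statistic, and of those named, only region 7 of ZNF629, region 3 of ZNF326, region 5 of ZNF503 and region 1 of ZNF3 held with centring. The smallest FDR was that of region 7 of ZNF629, with 608 IP and 447 input counts in toosendanin cells against 843 IP and 454 input counts in control cells. The authors' deposited table gave it a log2 fold change of -0.51 ± 0.12 (counting error, FDR = 0.00108). ZNF326, a splicing factor that travels with RNA polymerase, had 3 called regions. Its region 3 held 74 IP and 87 input counts in toosendanin cells against 186 IP and 101 input counts in control cells, with -1.12 ± 0.29 in the authors' deposited table (FDR = 0.00302). ZNF622 was called on the largest counts: 2993 IP and 2605 input counts in toosendanin cells against 4095 IP and 3267 input counts in control cells, with -0.18 ± 0.05 in the authors' deposited table (FDR = 0.00730). ZNF503 fell in region 5, with 91 IP and 89 input counts in toosendanin cells against 166 IP and 80 input counts in control cells and -1.03 ± 0.29 in the authors' deposited table (FDR = 0.00897). Region 1 of ZNF3 at -0.49, region 2 of ZNF638 at -0.35, region 4 of ZNF146 at -0.20 and region 1 of ZNF326 at -0.32 make up the 8 with the smallest FDR in the authors' deposited table (0.00689, 0.0108, 0.0175 and 0.0184). At least 2-fold falls were limited to 3 called regions in the authors' deposited table, those of ZNF326 and ZNF503 above and region 3 of ZNF639 at -1.11 ± 0.37 (FDR = 0.0372) with 45 IP counts in toosendanin cells and 90 in control cells. Below the call, 71.2% of the 480 tested member regions had a log2 fold change under 0 in the authors' deposited table, against 58.8% of all tested regions, and the medians were -0.12 and -0.05. Choosing regions enriched in control tilts the fold change down, as said above. Among such tested regions the shares were 78.2% for members and 75.8% for all, with medians of -0.16 and -0.12 in the authors' deposited table. Among tested regions not enriched in control the shares were 55.2% and 46.8%, with medians of -0.04 and 0.02. Over all their tested regions, the ZBTB, ZSCAN, ZKSCAN and ZFP genes had 69.2%.

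**Figure D5:**
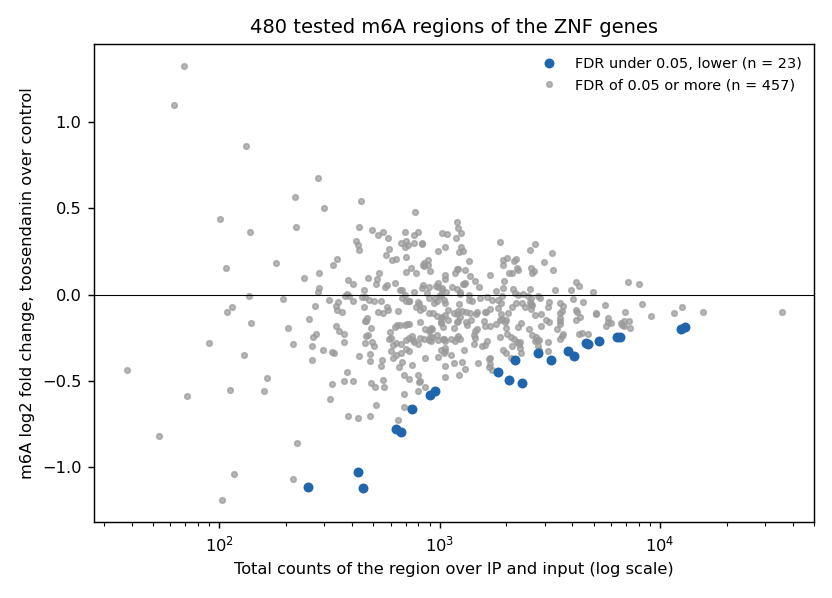
Tested regions of ZNF members: log2 fold change of IP over input, toosendanin over control (y axis, the authors' deposited table), by the region's total counts over IP and input of both conditions (x axis, log scale). The 23 called regions all lie below 0, from -0.18 in ZNF622 to -1.12 in ZNF326.

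The 7 members called with at least a 2-fold change in expression held no called m6A region. Over all members, 19 of 179 with a tested region held a called one, so nothing is read from this absence. Region 2 of ZNF114 held 2629 IP and 1116 input counts in toosendanin cells against 406 IP and 149 input counts in control cells, with -0.23 ± 0.15 in the authors' deposited table (FDR = 0.369). Region 1 of ZNF554 held 960 IP and 510 input counts in toosendanin cells against 452 IP and 201 input counts in control cells, with -0.30 in the authors' deposited table (FDR = 0.206). Region 1 of ZNF614 held 406 IP and 210 input counts in toosendanin cells against 1269 IP and 680 input counts in control cells, with 0.03 in the authors' deposited table (FDR = 0.928). In these 3 regions IP counts followed the input counts. A region lower in m6A occurred in 3 of the 24 members higher by expression (ZNF217, ZNF292 and ZNF655), in 3 of the 22 lower ones (ZNF335, ZNF503 and ZNF638) and in 13 of the 148 not called in the authors' deposited table. After centring these were 0 of 24, 2 of 22 (ZNF335 and ZNF503) and 4 of 148. Before centring, 1688 of 8240 tested genes with a mean of 300 or more held a called region, higher or lower. By region, 4.84%, 4.48% and 4.84% of tested regions were lower in the higher, lower and uncalled members. Over genes with a mean of 300 or more 6.4% were lower, so no difference between the groups is read. Region 3 of ZNF292 had -0.38 ± 0.12 in the authors' deposited table (FDR = 0.0249), on 1194 IP and 415 input counts in toosendanin cells against 1251 IP and 335 input counts in control cells.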

How the data were processed

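RNA of HepG2 cells was sequenced in 12 libraries, 3 IP and 3 input for toosendanin and for control. Per the labels' protocols, the kit kept the strand of mRNA and added unique molecular identifiers. The submitters' processing notes name HISAT2, StringTie and DESeq, with no version. No genome build, annotation or m6A caller is given in the sources used here.

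Per the file headers, the expression table deposited by the authors holds a mean normalized count (a normalized signal over libraries), a log2 fold change, its standard error and Wald statistic (used as a score, deposited by the authors), a p-value and an adjusted p, in the columns of a DESeq2 result. The m6A table holds read counts per region that the authors summed over the libraries of a condition, with a deposited log2 fold change, p-value and FDR. Calls were taken at 0.05 from the deposited tests. The design foresaw edgeR on counts per library, and the files used here hold none, so nothing was refitted.

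Computed here were enrichments (pseudocount of 0.5), input CPM, input changes (centred on genes with a mean of 300 or more), promoter motifs and counts of calls. Intervals and errors of m6A values cover counting error only. Of the 194 members, 193 matched RefSeq by symbol. A grouping of members by protein domains, foreseen in the design, was not made, since no protein table was used here; roles come from hand-written lists. The members and lists were chosen with earlier results of these data known. Named genes were the 10 largest called rises and falls, the 5 highest means, 5 on each side of the limit, called list members with up to 3 uncalled ones of the smallest error, and up to 8 m6A regions by FDR. Neighbours, promoters, other list members, members with large errors and the m6A regions of strongly changed members were chosen after their values were seen. Alternatives were stricter thresholds, a 2-fold limit, other limits on the mean, a new adjustment, centring, a widened statistic, a minimum of input counts and joined gene labels. Python 3.11.15, numpy 2.4.6, pandas 2.3.3, scipy 1.17.1 and matplotlib 3.10.9 were used.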

Additional observations from a re-analysis of the deposited data

How the results depend on the processing

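No paired analysis was possible because the deposited files hold a comparison and summed counts, not values per library; leaving out each replicate in turn was not run for the same reason. Of the 46 expression calls (24 higher, 22 lower), 7 (6 higher, 1 lower) reached a change of at least 2-fold, and 26 (11 higher) came from members with a mean of 600 or more. The 23 m6A calls came to 5 (5 lower) at an FDR under 0.01, to 3 (3 lower) at a change of at least 2-fold, to 7 (1 higher, 6 lower) when centred on the median of all regions, and to 0 (0 lower) with a statistic widened by 1.55, the spread of the statistic over all regions, where 388 calls were left over all regions. The 1 higher region after centring was region 2 of ZNF384. Within 1.5 times of the counts above were 32 expression calls at an adjusted p under 0.01, 43 after a new adjustment, 46 after centring and 65 at a mean of 150 or more, and 24 m6A calls with joined labels, 23 with at least 50 inputs and 19 in regions enriched in control. Set against summed inputs, an alternative chosen after seeing the data, ZNF426 turned to -0.15; of the other 45 called members, 36 stayed within 1 standard error and 9 moved by more with the same sign, 7 of them closer to 0 and 2 (ZNF362 and ZNF550) further from it. The cause of these changes was not tested. Summed counts limit what m6A calls show, since spread between libraries is not in them.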

Other observations

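Regions whose label joins a member with another gene numbered 29, for 7 members, and 1 of them, labelled with the readthrough gene ERV3-1-ZNF117 and ZNF117, was lower in m6A at -0.41 in the authors' deposited table (FDR = 4.98e-06). ZNF26, ZNF84, ZNF117 and ZNF761 had no region under their own label alone.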
